A study of Sus scrofa with 13 samples.

Results

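Collagens are the main proteins of the connective tissue of muscle, and each collagen molecule is a triple helix wound from chains that are encoded by separate genes. The collagen chains described here were the genes of the count tables whose symbol reads COL, a number, A and a number, and 33 of 25322 gene identifiers met this rule. Of these, 9 encoded fibrillar chains, 6 chains of type IV collagen, 4 chains of type VI collagen and 14 other chains. The last set held 6 chains of fibril-associated collagens, 3 transmembrane chains, 2 short chains, 1 multiplexin, 1 anchoring fibril chain and 1 remaining chain. A further 11 collagen names of the reference, COL1A1 among them, matched no identifier and were not analysed here.

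The fibrillar collagens, led by types I and III, form the tension-bearing fibres of the sheaths around muscle fibres and their bundles. Type IV collagen is the sheet-forming network of the basement membrane that coats every muscle fibre and capillary. Type VI collagen makes beaded filaments that tie this membrane to the fibres of the surrounding matrix, and the fibril-associated chains sit on the surface of fibrils.

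The tissue was longissimus lumborum, the loin muscle, of 13 unrelated female pigs aged 6 months and kept in the same way. Within the Hampshire breed, 3 pigs (numbered 8, 9 and 10) had a high and 3 (1, 2 and 3) a low weight of loin, and within the Pietrain breed, 4 pigs (1, 2, 6 and 7) had a high and 3 (3, 5 and 8) a low weight. Both are sire breeds, and the study compared high with low loin weight within each breed to describe the genetic background of meat content. Every pig was a separate animal, and no treatment was given to any group. Values of single pigs are given below in the order of these numbers.

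Total counts per pig ranged from 11312755 to 20134612, and every pair of pigs of 1 group (15 of 15 pairs) differed by more than sampling noise. The muscle label was checked against the 5 matched of 8 listed fibre genes, summed in counts per 1000000 counts (CPM). Their sum was 152977 to 222331 CPM in Hampshire high and 121828 to 184915 in Hampshire low pigs. In Pietrain it was 75063 to 144281 CPM in high and 93502 to 106293 in low pigs. The counts of the breeds were deposited as separate tables, so breed and anything else that differed between those tables cannot be told apart. In whole muscle, fewer cells of a type and less RNA per cell cannot be told apart either. Of the 33 chains, 20 passed the filter on low counts in the Hampshire pigs and in the fit over 13 pigs, and 19 in the Pietrain pigs, where COL4A6 did not. Those 20 carried 99.9% of all collagen counts, and COL1A2 and COL3A1 together carried 68.7%.

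The summed level of the 33 chains was highest in the Hampshire pigs with high loin weight. It was 3572 ± 1528 CPM there (SD, n = 3), against 1461 ± 557 in Hampshire low (n = 3), 1634 ± 604 in Pietrain high (n = 4) and 1245 ± 371 in Pietrain low (n = 3). Expressed as a share of all counts, this was 0.322% ± 0.133 in Hampshire high, 0.151% ± 0.0659 in Hampshire low, 0.178% ± 0.0726 in Pietrain high and 0.125% ± 0.0468 in Pietrain low. The lowest Hampshire high pig, at 1818 CPM, lay within the range of the low pigs of its breed, which reached 1895 CPM, so the sums overlapped. Type IV chains made up 17.9% ± 4.27 of the sum in Hampshire low, against 12.1% ± 3.07 in Hampshire high, 13.1% ± 4.14 in Pietrain high and 11.5% ± 3.86 in Pietrain low. Fibrillar chains made up 75.1% ± 4.05 and 68.6% ± 3.90 in Hampshire high and low, and 75.7% ± 5.39 and 78.2% ± 4.07 in Pietrain high and low. Type VI chains accounted for 8.82% ± 1.12 and 9.62% ± 1.17 in Hampshire high and low, and for 7.32% ± 1.25 and 5.80% ± 0.766 in Pietrain high and low. These shares are descriptions and were not tested.

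**Figure D1:**
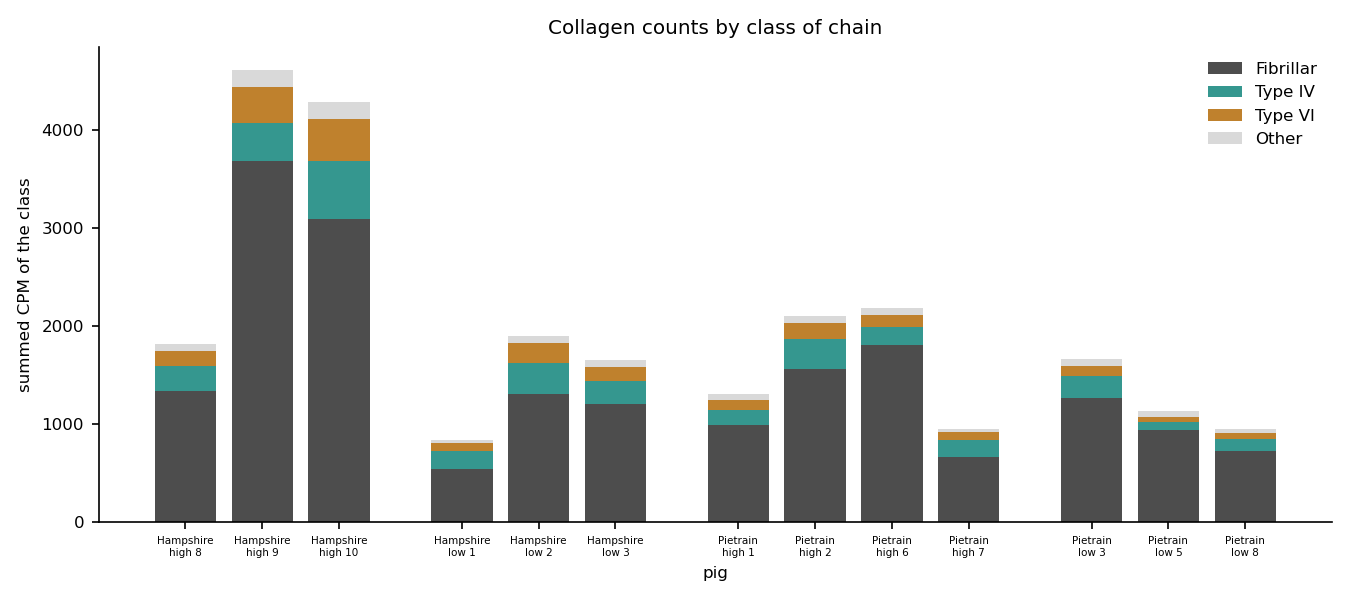
Summed CPM of the fibrillar, type IV, type VI and other collagen chains (stacked bars) in each of the 13 pigs, grouped by breed and loin weight. Hampshire high pigs 9 and 10 reach 4614 and 4283 CPM, and the other 11 pigs at most 2182 CPM.

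In Hampshire pigs, 4 chains were higher at high loin weight, the fibrillar chains COL1A2 and COL3A1 and the fibril-associated chains COL14A1 and COL16A1. By edgeR's quasi-likelihood test (Benjamini-Hochberg adjusted p under 0.05 over all genes tested and a fold of at least 1.2), these 4 of 20 tested chains rose and 0 fell. Of all 12228 genes tested, 12.0% rose and 26.6% changed in either direction. The high and low pigs did not overlap for the same 4 chains, all higher, against 22.4% of all genes apart and higher. The estimate was above 0 for 18 of 20 chains, with a median log2 fold change of 0.87, against 0.03 over all genes, of which 51.6% were above 0. Of the 20, 11 had an unadjusted p under 0.05, against 41.2% of all genes. These calls rested on few pigs, and calls over all genes fell as well when 1 pig was left out. All 4 chains were kept without high pig 8, when 9 chains were called, but none of the 4 without high pig 9 or 10 or low pig 1, 2 or 3, when 0 or 1 chain was called. Of all genes, 3256 were called in the full fit and 3049 without high pig 8. Without high pig 9 or 10 there were 2091 and 1760, and without low pig 1, 2 or 3 there were 2375, 2179 and 1224. DESeq2 called 10 chains, against 3370 of 13118 genes. After the trend with gene length was removed, edgeR called 8 of the 15 chains with coordinates, against 2313 of 9945 genes. Both included these 4. Fold changes in Hampshire pigs fell with gene length (rank correlation of Spearman -0.39 over 9945 genes, a description in which no gene is a replicate), and the 15 chains with coordinates had a median length of 52200 bp against 18945 bp over all 9975 such genes.

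In Pietrain pigs, 0 of 19 tested chains passed the same test and 0 had an unadjusted p under 0.05. Over all 12065 genes, edgeR called 0 (0.0%), 398 had an unadjusted p under 0.05 (3.3%), and DESeq2 called 1 gene, no collagen chain. No chain had high and low pigs apart, against 4.59% of all genes. The estimate was above 0 for 17 of 19 chains with a median log2 fold change of 0.46, against 0.02 over all genes, of which 52.4% were above 0, and adjusted p-values of the chains ran from 0.939 to 0.971. The difference between the breeds in the effect of loin weight was tested itself, as an interaction in edgeR over all 13 pigs. It was called for 0 of 20 chains, against 5.9% of 12831 genes, and 2 chains had an unadjusted p under 0.05 against 22.1% of genes. DESeq2 called 0 chains as well. Those with the smallest p were COL14A1, with a difference in log2 fold change of 1.72 (SE 0.670, edgeR adjusted p = 0.148), and COL1A2, with 1.46 (SE 0.639, adjusted p = 0.195).

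**Figure D2:**
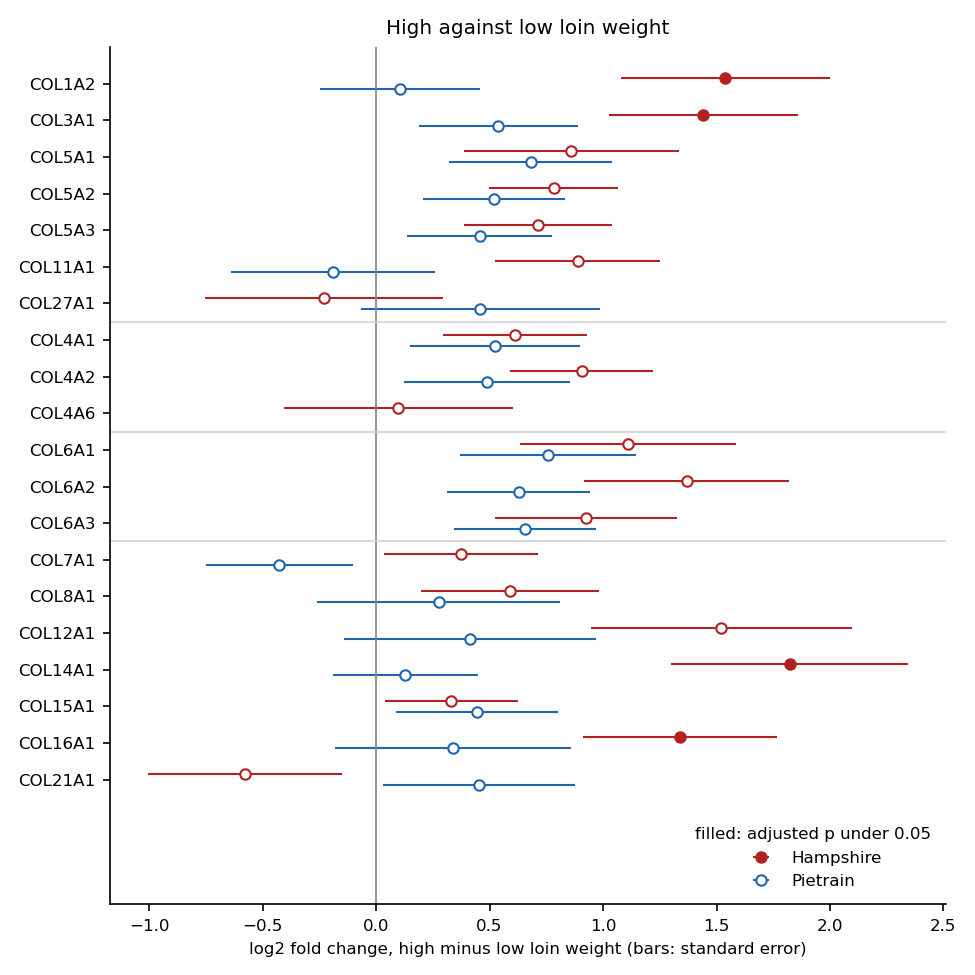
Log2 fold change of high against low loin weight (x axis) with its standard error for each tested chain in Hampshire and Pietrain pigs, in the order fibrillar, type IV, type VI and other chains. Filled points, those of COL1A2, COL3A1, COL14A1 and COL16A1 in Hampshire, mark an edgeR adjusted p under 0.05.

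Between breeds, 9 of 20 tested chains were higher and 0 lower in Hampshire pigs among those of high loin weight, and the other 11 were not called. Of 12831 genes, 22.6% were higher, 24.2% lower and 46.8% called in either direction, so the share of chains called was near that of all genes. The breeds did not overlap for 4 chains, all higher in Hampshire, against 24.0% of genes apart and higher. The median log2 difference over the 20 chains was 1.00 against 0.02 over all genes. Leaving out Hampshire high pig 9 or 10 left 2 chains called, against 4640 of 13273 and 4705 of 13109 genes. Without Pietrain high pig 6 or 7 there were 5 chains, against 5620 of 12812 and 6288 of 12760 genes. The count reached 11 chains without Hampshire high pig 8, against 5491 of 13181 genes. COL14A1 lost its call without Hampshire high pig 9, COL4A2 without pig 10, and COL1A2 without either of them. COL16A1 lost it without either or Pietrain high pig 6 or 7, COL5A1 without either or Pietrain high pig 1 or 6, and COL6A1 without either or Pietrain high pig 1, 6 or 7. COL3A1 and COL6A3, nearest to the threshold, lost it in 8 and 9 of 13 fits. DESeq2 called 10 chains (6167 of 14797 genes), and edgeR without a filter also 10 (5632 of 19235 genes). The edgeR fit of the 2 groups alone called 8 (5353 of 12210 genes), without COL3A1 (adjusted p = 0.0601). With the gene length trend removed edgeR called 12 of the 15 chains with coordinates, against 4816 of 9975 genes. COL4A1, COL5A2, COL5A3 and COL7A1 were added and COL6A1 was lost (log2 difference 1.03, adjusted p = 0.0657). Among pigs of low loin weight, 0 of 20 chains were called by edgeR, against 17.9% of genes. Of the 20, 4 had an unadjusted p under 0.05 (35.9% of genes), and DESeq2 called 1 chain, COL6A2, against 3126 of 11516 genes. Leaving out Hampshire high pig 8 or Pietrain high pig 6 gave 1 chain, against 2005 of 13181 and 3091 of 12812 genes. Leaving out Hampshire low pig 1 gave 2 chains (1667 of 13186 genes) and Pietrain low pig 3 gave 3 (2611 of 13245 genes). COL6A2 was among these chains each time. The fewest genes, 109 of 13172, were called without Hampshire low pig 2. The breeds were apart for COL27A1, a fibrillar chain that was higher in Hampshire, and for COL11A1, which was lower, against 42.8% of all genes. Each of these comparisons shares its pigs with the comparison of loin weight: the Hampshire high pigs enter both the test within their breed and the test between breeds.

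**Figure D3:**
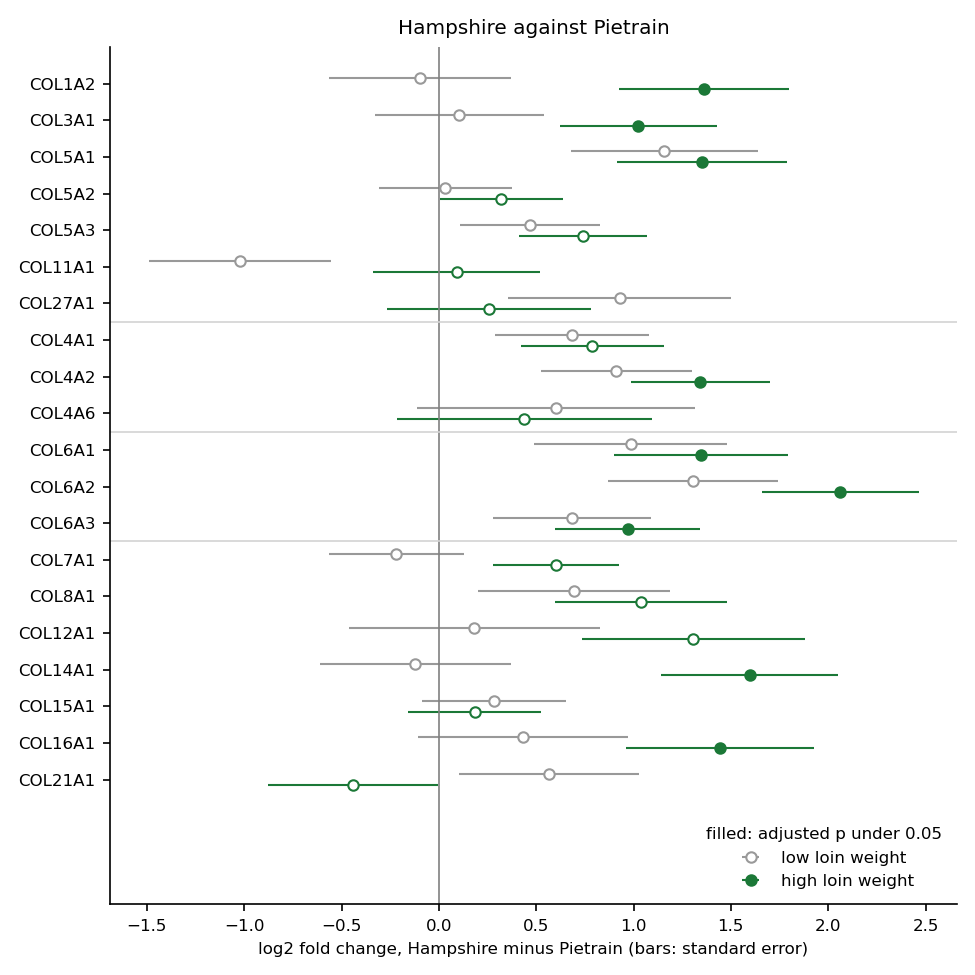
Log2 fold change of Hampshire against Pietrain (x axis) with its standard error for each tested chain, among pigs of low and of high loin weight. The 9 filled points mark an edgeR adjusted p under 0.05, all among pigs of high loin weight, with COL6A2 farthest to the right at 2.06.

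The fibrillar chains carried most of the collagen counts. COL1A2 encodes the second chain of type I collagen, the major collagen of tendon and muscle sheaths. Its level was 448, 1291 and 1034 CPM in Hampshire high pigs, 146, 427 and 386 in Hampshire low pigs, 311, 429.5, 534 and 163 in Pietrain high pigs and 399, 389.8 and 236 in Pietrain low pigs. Hampshire high pigs 9 and 10 stood far above all others, while pig 8 was only just above the highest low pig. The log2 fold change with loin weight was 1.54 in Hampshire (SE 0.459, edgeR adjusted p = 0.0382) and 0.10 in Pietrain (SE 0.352, adjusted p = 0.971). Between breeds the log2 difference was -0.10 in low pigs (adjusted p = 0.899) and 1.36 in high pigs (SE 0.435, adjusted p = 0.0195). The gene lies on chromosome 9 from 81357192 to 81393120 of Sscrofa10.2, the build of all coordinates here.

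COL3A1 encodes the single chain of type III collagen, which is mixed into the thin fibrils around fibres and vessels. It stood at 781, 2189 and 1849 CPM in Hampshire high pigs, 330.2, 748 and 704 in Hampshire low, 590.4, 996, 1152 and 419 in Pietrain high and 756, 488 and 415 in Pietrain low pigs. The order of the Hampshire pigs was that of COL1A2, and Hampshire high and low pigs were again narrowly apart, at 781 against 748 CPM. It rose by 1.44 on the log2 scale with loin weight in Hampshire (SE 0.416, edgeR adjusted p = 0.0341), and the Pietrain value was 0.54 (SE 0.352, adjusted p = 0.939). The breed difference was 0.10 in low pigs (adjusted p = 0.881) and 1.03 in high pigs (SE 0.403, adjusted p = 0.0496), just within the threshold.

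COL3A1 lies on chromosome 15 from 104067018 to 104105776, and COL5A2 from 104122882 to 104175081 on the same chromosome, with 17105 bp between them. COL5A2 and COL5A1 encode chains of type V collagen, which nucleates type I fibrils and limits their width. COL5A1, on chromosome 1 from 308064163 to 308174334, stood at 24.5, 65.9 and 64.7 CPM in Hampshire high, 11.7, 39.5 and 34.6 in Hampshire low, 18.5, 28.7, 18.3 and 15.6 in Pietrain high and 20.7, 7.28 and 10.6 in Pietrain low pigs. COL5A2 stood at 41.7, 79.2 and 68.9 CPM in Hampshire high, 25.0, 45.4 and 40.1 in Hampshire low, 37.8, 65.3, 70.2 and 29.1 in Pietrain high and 44.6, 32.8 and 30.6 in Pietrain low pigs. For COL5A1 the Pietrain pigs were the lower breed in most cases, whereas the COL5A2 levels of the breeds largely overlapped. COL5A1 was 1.35 higher on the log2 scale in Hampshire among high pigs (SE 0.436, edgeR adjusted p = 0.0207). Among low pigs its difference was 1.16 (SE 0.480, adjusted p = 0.102), and it was called when Hampshire low pig 1 or Pietrain low pig 3 was left out. COL5A2 differed by 0.32 in high pigs (SE 0.316, adjusted p = 0.420), and by 0.80 (edgeR adjusted p = 0.0382) with the gene length trend removed. With loin weight the Hampshire estimates were 0.86 for COL5A1 (adjusted p = 0.201) and 0.78 for COL5A2 (adjusted p = 0.0705), and the Pietrain estimates were 0.68 and 0.52.

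Of the other fibrillar chains, COL5A3, another chain of type V collagen, ranged from 11.8 to 71.1 CPM and had a Hampshire estimate of 0.71 (SE 0.326, edgeR adjusted p = 0.133). COL11A1, a chain of type XI collagen known best from cartilage, had its lower values in Hampshire among low pigs. It was at 3.49, 1.75 and 1.96 CPM in Hampshire low pigs, all under the 5.83, 5.07 and 3.76 CPM of Pietrain low pigs, a log2 difference of -1.02 (SE 0.468, adjusted p = 0.132). COL27A1 did not exceed 1.43 CPM in any pig. COL2A1, the cartilage collagen, and COL11A2 failed the filter, with 5 and 47 counts in all.

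**Figure D4:**
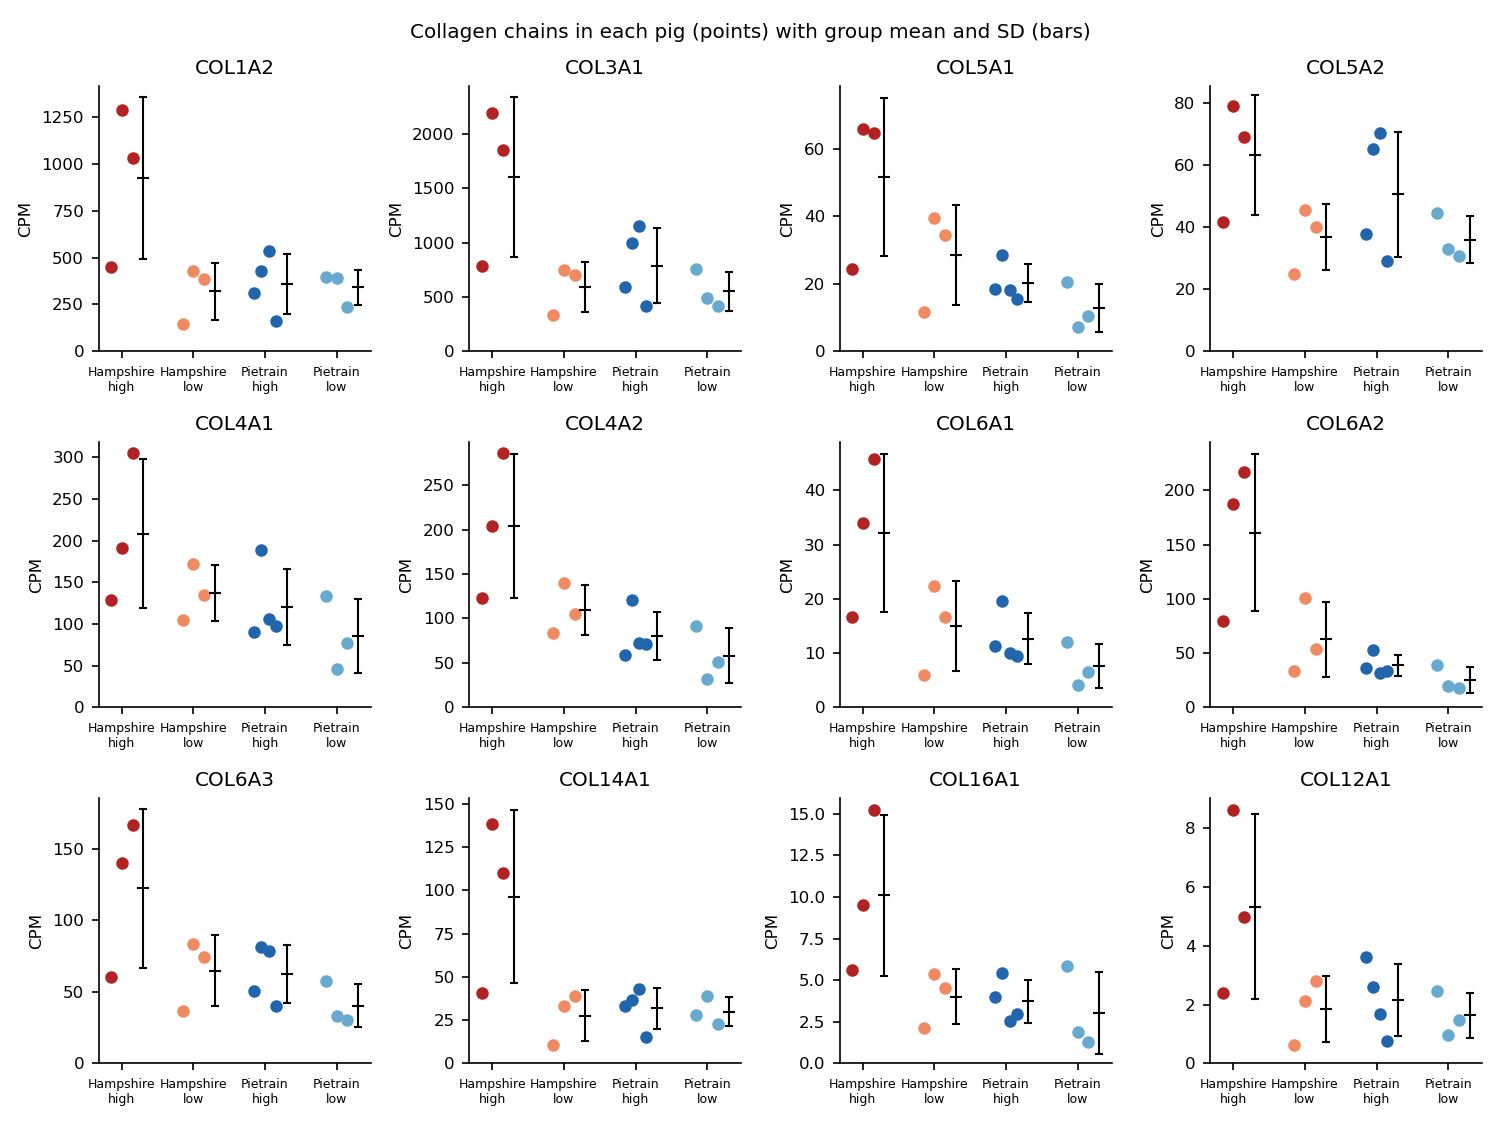
Level of 12 collagen chains in CPM (y axis, linear from 0) in each pig of the 4 groups, with the group mean and SD beside the points. Hampshire high pigs 9 and 10 lie above all other pigs for COL1A2, COL3A1, COL6A2 and COL14A1, with Hampshire high pig 8 among or close to the remaining pigs.

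The basement membrane chains COL4A1 and COL4A2, which together form the common type IV molecule, did not pass the test for loin weight in either breed. Their genes lie on chromosome 11, COL4A1 from 84373663 to 84432619 and COL4A2 from 84613773 to 84675898, with 181153 bp between them. COL4A1 stood at 129, 191 and 305 CPM in Hampshire high, 104, 172 and 134 in Hampshire low, 90.4, 189, 106 and 97.8 in Pietrain high and 133, 45.7 and 76.9 in Pietrain low pigs. COL4A2 stood at 123, 204 and 286 CPM in Hampshire high, 83.6, 140.1 and 104 in Hampshire low, 58.6, 120.4, 71.9 and 70.8 in Pietrain high and 91.7, 31.5 and 51.3 in Pietrain low pigs. Both overlapped between high and low pigs in each breed, and for COL4A2 every Hampshire high pig was above every Pietrain high pig. In Hampshire the log2 fold change with loin weight was 0.61 for COL4A1 (SE 0.317, edgeR adjusted p = 0.177) and 0.91 for COL4A2 (SE 0.314, adjusted p = 0.0613). COL4A2 was higher in Hampshire among high pigs, by 1.34 on the log2 scale (SE 0.358, adjusted p = 0.00746), while COL4A1 gave 0.79 (SE 0.365, adjusted p = 0.0901). With the gene length trend removed, COL4A1 gave 1.27 and was called (adjusted p = 0.0109). Among low pigs the COL4A2 difference was 0.91 (adjusted p = 0.109), and it was called when Pietrain low pig 3 was left out.

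The minor type IV chains were scarce. COL4A6 ranged from 0.158 to 1.62 CPM, and COL4A3, COL4A4 and COL4A5, with 32, 41 and 44 counts over all pigs, failed the filter. COL4A3, singled out after its values were seen, had 0 counts in all 6 Hampshire pigs and 1 to 8 counts in each of the 7 Pietrain pigs. In Hampshire, 3 counts over the group were taken as the most that 0 counts allow (0.0313 CPM, here per total counts). The Pietrain value, 0.320 CPM from 32 counts, was 10.2-fold above that limit. The limit covers counting error in Hampshire only, and the counting error of the 32 Pietrain counts was not included. COL4A4, its usual partner in the helix, had 15 counts in 5 of 6 Hampshire pigs and 26 counts in 7 of 7 Pietrain pigs. In an edgeR fit without the filter, COL4A3 had an adjusted p = 0.0329 among low and 0.0355 among high pigs.

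All 3 tested chains of type VI collagen, COL6A1, COL6A2 and COL6A3, were called higher in Hampshire than in Pietrain pigs of high loin weight, as were 22.6% of all genes. These 3 chains wind together into 1 molecule. COL6A2, on chromosome 13 from 218600762 to 218615843, stood at 79.2, 188 and 217 CPM in Hampshire high, 33.7, 101 and 53.5 in Hampshire low, 36.6, 53.0, 31.9 and 33.0 in Pietrain high and 39.3, 19.5 and 17.5 in Pietrain low pigs. The lowest Hampshire high pig exceeded every Pietrain pig, and Hampshire low pig 2 exceeded Hampshire high pig 8. The breed difference was 2.06 on the log2 scale in high pigs (SE 0.403, edgeR adjusted p = 0.00109), and it was called in each of the 13 fits that left out 1 pig, with adjusted p-values from 0.000588 to 0.00817. In low pigs it was 1.31 (SE 0.438, adjusted p = 0.0523). DESeq2, other filters and removal of the length trend called it there. DESeq2 size factors in edgeR, the fit of the 2 groups alone and no fold threshold did not. With 1 pig left out, it was called in 4 of 13 fits.

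COL6A1 was at 16.7, 34.0 and 45.7 CPM in Hampshire high, 6.00, 22.3 and 16.6 in Hampshire low, 11.4, 19.6, 10.1 and 9.50 in Pietrain high and 12.0, 4.19 and 6.59 in Pietrain low pigs. COL6A3, whose long chain holds many of the domains that bind other matrix proteins, was at 60.0, 139.8 and 167 CPM in Hampshire high, 36.5, 83.2 and 74.3 in Hampshire low, 50.4, 81.2, 78.2 and 39.9 in Pietrain high and 57.3, 32.9 and 30.5 in Pietrain low pigs. Both overlapped between the breeds through Hampshire high pig 8. Among high pigs the log2 difference between breeds was 1.35 for COL6A1 (SE 0.447, edgeR adjusted p = 0.0235) and 0.97 for COL6A3 (SE 0.373, adjusted p = 0.0453). With 1 pig left out, COL6A1 lost this call in 5 of 13 fits and COL6A3 in 9. With loin weight in Hampshire, the type VI estimates were 1.11, 1.37 and 0.93 for COL6A1, COL6A2 and COL6A3, with adjusted p = 0.112, 0.0519 and 0.115. In Pietrain they were 0.76, 0.63 and 0.66, with COL5A1 the 4 highest of the 19 estimates, each with adjusted p = 0.939. COL6A1 is placed on an unplaced scaffold, from 8758 to 17584, and COL6A5, also of type VI, failed the filter with 105 counts. How reads that matched more than 1 place were counted is not given in the sources used here.

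Among the remaining chains, 3 fibril-associated ones had the largest estimates in Hampshire. COL14A1, a chain that coats type I fibrils and spaces them, was at 40.9, 138 and 109.9 CPM in Hampshire high, 10.7, 32.9 and 38.7 in Hampshire low, 33.1, 36.6, 42.7 and 15.1 in Pietrain high and 27.8, 39.0 and 22.7 in Pietrain low pigs. Hampshire high pigs 9 and 10 again stood apart, and the other 11 pigs lay between 10.7 and 42.7 CPM. It had the largest estimate of the 20 chains with loin weight in Hampshire, 1.82 on the log2 scale (SE 0.522, edgeR adjusted p = 0.0333), and 0.13 in Pietrain (adjusted p = 0.961). Between breeds it gave -0.12 in low pigs (adjusted p = 0.876) and 1.60 in high pigs (SE 0.454, adjusted p = 0.0108). The gene spans chromosome 4 from 19715674 to 19949617.

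COL16A1, on chromosome 6 from 82011453 to 82064725, encodes another fibril-associated chain. Its level was 5.58, 9.55 and 15.2 CPM in Hampshire high, 2.14, 5.35 and 4.55 in Hampshire low, 3.98, 5.45, 2.53 and 2.95 in Pietrain high and 5.83, 1.90 and 1.28 in Pietrain low pigs, so the Hampshire groups were apart by a small margin. It rose by 1.34 with loin weight in Hampshire (SE 0.426, edgeR adjusted p = 0.0467), and in the fit over all 13 pigs this was no longer called (adjusted p = 0.0881). Among high pigs it was 1.44 higher in Hampshire (SE 0.484, adjusted p = 0.0248). COL12A1, also of this kind, had a Hampshire estimate of 1.52 but with a wide error (SE 0.575, adjusted p = 0.0791).

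COL21A1 was the exception among the fibril-associated chains, with the lowest of the 20 Hampshire estimates, -0.58 (SE 0.427, edgeR adjusted p = 0.335), and -0.44 between breeds in high pigs (adjusted p = 0.426). COL15A1, a multiplexin of basement membranes, had a Hampshire estimate of 0.33, COL7A1, the anchoring fibril chain, 0.37, and COL8A1, a short chain of vessel walls, 0.59, with adjusted p = 0.424, 0.438 and 0.286. COL8A1 was higher in each Hampshire high pig than in any Pietrain high pig, with a log2 difference of 1.04 (SE 0.442, adjusted p = 0.0668). The 7 others, COL9A1, COL10A1, COL13A1, COL17A1, COL22A1, COL23A1 and COL28A1, failed the filter with 0 to 75 counts each over the 13 pigs. COL9A1, a cartilage chain, was the single member with 0 counts in all pigs.

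The proportion of chains that share a molecule or a fibril was then compared within pigs. A ratio of counts of the same genes cancels a length that is fixed for each gene. It does not cancel a trend with gene length that differs between pigs. Over all genes, the difference of Hampshire minus Pietrain fell with gene length (Spearman -0.21 in low and -0.39 in high pigs). The ratios were not run with this trend removed. With 6 chain pairs and 3 comparisons, 18 two-sided exact permutation tests of the log2 ratio were run and adjusted by the Benjamini-Hochberg method, and 3 passed, all between breeds. The ratio COL4A1/COL4A2 was 1.05, 0.937 and 1.07 in Hampshire high, 1.25, 1.23 and 1.28 in Hampshire low, 1.54, 1.57, 1.47 and 1.38 in Pietrain high and 1.45, 1.45 and 1.50 in Pietrain low pigs. All 6 Hampshire pigs were below all 7 Pietrain pigs. The log2 difference of Hampshire minus Pietrain was -0.39 (exact permutation p = 0.000583, the smallest that 6 against 7 allow, adjusted p = 0.0105). It was -0.22 among low and -0.55 among high pigs, without overlap in either, and it passed in each of the 13 analyses that left out 1 pig (-0.42 to -0.33). Within Hampshire, high pigs had a lower ratio than low pigs, without overlap, at a log2 difference of -0.30 (exact permutation p = 0.10, the smallest that 3 against 3 allow). In Pietrain the difference was 0.02 (exact permutation p = 0.743).

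The ratio COL5A1/COL5A2 was higher in Hampshire, by 0.95 on the log2 scale (exact permutation p = 0.00350, adjusted p = 0.0315, 6 against 7 pigs). It was 0.588, 0.832 and 0.938 in Hampshire high, 0.468, 0.870 and 0.864 in Hampshire low, 0.489, 0.439, 0.261 and 0.535 in Pietrain high and 0.464, 0.222 and 0.345 in Pietrain low pigs. The breeds were apart within low pigs (1.07) and within high pigs (0.87). The ratio COL6A1/COL6A2 was lower in Hampshire, by a log2 difference of -0.54 (exact permutation p = 0.00583, adjusted p = 0.0350), with -0.37 in low pigs, where the breeds overlapped, and -0.69 in high pigs, where they did not. Leaving out 1 pig raised the adjusted p above 0.05 in 8 of 13 analyses for COL5A1/COL5A2 (at most 0.0795) and in 10 of 13 for COL6A1/COL6A2 (at most 0.106). The first still passed without Hampshire high pig 8, Hampshire low pig 1, Pietrain high pig 1 or 7 or Pietrain low pig 5, and the second without Hampshire low pig 3, Pietrain high pig 7 or Pietrain low pig 5. The ratio COL6A3/COL6A1 differed by -0.28 between breeds (adjusted p = 0.360 by the exact permutation test).

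The pairs COL3A1/COL1A2 and COL5A2/COL3A1 were chosen after the count tables had been seen. The ratio COL3A1/COL1A2 was 1.90, 2.32, 2.16 and 2.56 in Pietrain high against 1.89, 1.25 and 1.76 in Pietrain low pigs, without overlap, a log2 difference of 0.46 (exact permutation p = 0.0571, where 4 against 3 allow 0.0286, adjusted p = 0.206). In Hampshire it was 1.74, 1.70 and 1.79 in high and 2.26, 1.75 and 1.82 in low pigs. The ratio COL5A2/COL3A1 was lower in Hampshire high than in Hampshire low pigs, without overlap, by a log2 difference of -0.63 (exact permutation p = 0.10, adjusted p = 0.257).

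**Figure D5:**
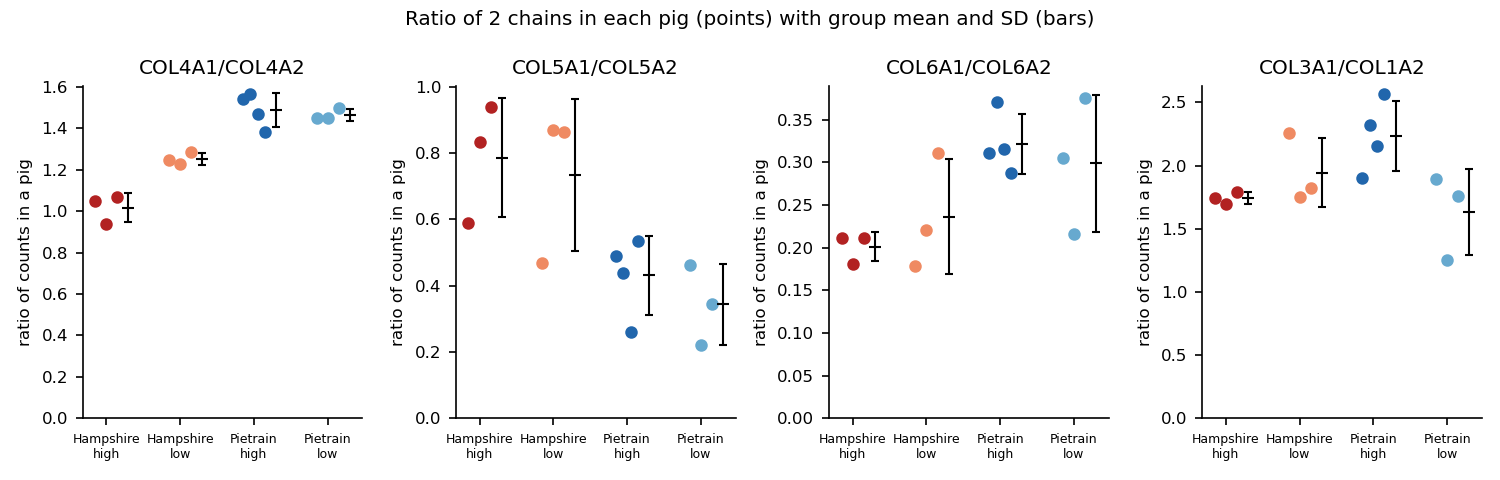
Ratio of the counts of 2 chains (y axis, linear from 0) in each pig of the 4 groups, with the group mean and SD, for 4 pairs of chains. For COL4A1/COL4A2 all 6 Hampshire pigs lie at or below 1.28 and all 7 Pietrain pigs at or above 1.38.

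Across pigs of 1 breed, the levels of the paired chains were correlated. Correlations of log2 CPM were computed for the same 6 pairs in each breed, 12 in all, and Pearson's r had a Benjamini-Hochberg adjusted permutation p under 0.05 for 11 of them. Other pairs of chains were not correlated for comparison, so these values do not show that the correlation is particular to partner chains. Chains of 1 library share its scaling, which bears on each r. A shift of both chains with loin weight bears on r as well, and correlations within a loin weight group were not computed. For COL4A1 and COL4A2, r was 0.970 (exact permutation p = 0.00278) and Spearman's rho 0.943 (exact p = 0.0167) in the 6 Hampshire pigs. In the 7 Pietrain pigs, r was 0.996 (exact permutation p = 0.000198) and rho 1.00 (exact p = 0.000397). Without the 2 pigs farthest from the median of COL4A1, r was 0.887 and 0.985. The exception was COL5A1 and COL5A2 in Pietrain, with r = 0.680 (exact permutation p = 0.0903, also after adjustment) and rho = 0.643 (exact p = 0.139), and r = 0.643 without 2 pigs. In Hampshire the same pair had r = 0.962 (exact permutation p = 0.00556) and rho = 0.943 (exact p = 0.0167), and r = 0.896 without 2 pigs. That the breeds differ in this correlation was not tested.

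Genes that build, trim and bind collagen did not move as 1 block with loin weight. Of 38 tested identifiers of a collagen pathway list in Hampshire, 8 rose and 2 fell by edgeR, against 12.0% of all genes higher and 14.6% lower. The median log2 fold change of the 38 was 0.63, against 0.03 over all genes. In Pietrain 0 of 35 were called. None of the 9 folding and modifying enzymes was called in Hampshire, where P3H1, a prolyl hydroxylase, gave 0.55 (edgeR adjusted p = 0.102) and PLOD2, a lysyl hydroxylase, -0.45 (adjusted p = 0.185). By contrast, both enhancers of procollagen C-propeptide removal rose. PCOLCE2 was at 23.5 ± 9.70 CPM (SD, n = 3) in Hampshire high and 5.10 ± 1.30 in Hampshire low pigs (n = 3), against 5.64 ± 1.08 in Pietrain high (n = 4) and 5.41 ± 0.666 in Pietrain low pigs (n = 3). Its log2 fold change was 2.21 in Hampshire (SE 0.329, adjusted p = 0.00375) and 0.10 in Pietrain (adjusted p = 0.965), and it was the single gene of the list called in the interaction (2.15, adjusted p = 0.00998). PCOLCE gave 1.77 in Hampshire (adjusted p = 0.0102).

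Of the crosslinking enzymes, 0 of 4 were called in Hampshire, with LOX at 1.71 (edgeR adjusted p = 0.137) and LOXL4 at 0.89 (adjusted p = 0.168). Of the 8 identifiers for regulators of fibril growth, 5 rose, among them the small proteoglycans FMOD (2.42, adjusted p = 0.00490) and DCN (1.55, adjusted p = 0.00820). SPARC had 2 of the 8 identifiers, both of which rose, and both count in the totals of the list. Of the 7 collagen receptors, 0 were higher and 2 lower, ITGA1, the alpha chain of a collagen-binding integrin, at -1.01 (adjusted p = 0.00887) and its partner ITGB1 at -0.62 (adjusted p = 0.0254), while the other 5 were not called. TIMP2, an inhibitor of matrix proteases, rose by 1.01 (adjusted p = 0.0321), while TIMP3 gave -0.88 (adjusted p = 0.0595). Between breeds, 21 of 38 identifiers were higher and 6 lower in Hampshire among high pigs, against 22.6% of all genes higher and 24.2% lower. Among low pigs 5 were higher and 2 lower, against 7.84% and 10.1% of all genes. PLOD2 was lower in Hampshire in both, by -1.78 in low pigs (adjusted p = 0.00896) and -1.88 in high pigs (adjusted p = 0.000331).

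The summed level of 7 fibroblast markers was 822 to 1720 CPM in Hampshire high, 316 to 618 in Hampshire low, 324 to 698 in Pietrain high and 351 to 556 in Pietrain low pigs. Of these 7, edgeR called DCN and PI16 higher in Hampshire and did not call the other 5, against 12.0% of all genes higher. The sums themselves were not tested. The sum of 3 tendon cell markers was 34.8 to 69.5 CPM in Hampshire high and 10.0 to 22.9 in Hampshire low pigs, with TNMD and FMOD called higher. DCN, LUM and FMOD are also on the pathway list, so the calls of DCN and FMOD are counted in both places. The sum of 4 smooth muscle and pericyte markers was 196 to 256 against 134 to 169 CPM, with ACTA2 and TAGLN called. The sum of 3 macrophage markers was 20.1 to 46.8 against 12.1 to 19.0 CPM, with CD14 called, and it was 2.77 to 8.11 CPM in Pietrain pigs. The sum of 3 endothelial markers overlapped, at 131 to 146 against 104 to 142 CPM, with 0 of 3 called. The adipocyte list, with 1 gene matched, was at 2.11 to 8.82 against 0.631 to 2.19 CPM, and 3 Schwann cell markers summed to 14.98 to 23.1 against 12.6 to 13.0 CPM, with none called. The 5 fibre genes had 2 called higher and 1 lower in Hampshire. The 4 cartilage markers summed to at most 3.96 CPM in any pig, and ACAN was at 0 in all Pietrain pigs. The part that fibroblasts, tendon cells, smooth muscle cells or macrophages had in the collagen values was not tested.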

How the data were processed

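Loin muscle RNA of 13 pigs was sequenced as single-end reads. For each breed, the authors deposited 1 table of raw read counts, with a column per pig and a row per Ensembl gene. The submitters' processing notes name FastQC, STAR, RSEM, DESeq2 and the build Sscrofa10.2. Which program gave the counts and which annotation release was used are not given in the sources used here. The authors' DESeq2 tables were used for gene symbols and coordinates only, and their fold changes, p-values and adjusted p-values were not used.

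Of the 33 collagen chains, 12 had a symbol in the deposited tables and 21 were named from reference tables of Ensembl and RefSeq names. Their classes, the pathway list (41 of 47 names matched) and the marker lists (33 of 43) were chosen with earlier results of these data known. All chains may be named, and from the pathway list, per role, the 2 genes with the smallest p in Hampshire.

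Counts were tested by the quasi-likelihood test of edgeR 4.0.16 under R 4.3.3, after filterByExpr and TMM scaling, with a fit per breed for loin weight and 1 fit over 13 pigs for the interaction and the breeds. Chains were called at a Benjamini-Hochberg adjusted p under 0.05 over all genes tested and a fold of at least 1.2, with no fold limit for the interaction. The standard error is the fitted log2 fold change divided by the square root of its F statistic. CPM used the TMM library sizes of the fit over 13 pigs. Ratios and correlations used log2 CPM with a pseudocount of 0.5 and exact two-sided permutation tests (numpy 2.4.6). Total counts per pig were 11312755 to 20134612. Whether depth or the number of pigs limited the precision more was not tested. Each test was first tried on simulated data with known answers. Alternatives were DESeq2 1.42.0, its size factors in edgeR, other filters, a correction for gene length, other sets of pigs in the fit, no fold threshold, other pseudocounts and leaving out each pig.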

Additional observations from a re-analysis of the deposited data

Results flagged for a closer look

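In 31 groups of 4 pigs tested, all Pietrain pigs of high loin weight, 1 pig stood far from the other 3 in 4 cases by Dixon's criterion, which chance meets in about 1 of 20 groups. COL4A1 was 189 CPM in pig 2, against 90.4 to 106 in the other 3. COL6A5 was 3.63 CPM in pig 6 (56 counts), against 0.050 to 0.507. COL13A1 was 0.450 CPM in pig 7, against 0.195 to 0.217. The ratio COL6A3/COL6A1 was 7.77 in pig 6, against 4.13 to 4.43. Without pig 2, COL4A1 was called higher in Hampshire than in Pietrain pigs of high loin weight (edgeR adjusted p = 0.0312).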

How the results depend on the processing

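The call counts for collagen chains of Pietrain pigs and of the interaction were 0 under each alternative run. In Hampshire, 4 chains became 10 with DESeq2 and 8 with the gene length trend removed, and 0 to 9 when 1 pig was left out. Without 1 pig, 1224 to 3049 of all genes were called there, against 3256 in the full fit. Every fit with the length trend removed was limited to the 15 chains with coordinates. Between breeds, 0 chains in low pigs became 1 with DESeq2, 2 without a filter (COL6A2 and COL4A3), 1 with at least 10 counts in every pig, 1 with the length trend removed and 0 to 3 without 1 pig, and 9 chains in high pigs became 12 with the length trend removed, 10 with DESeq2 or without a filter, 8 in the fit of the 2 groups alone and 2 to 11 without 1 pig. Of all genes, the breed fits without 1 pig called 109 to 3091 in low pigs and 4640 to 6288 in high pigs. With the length trend removed, the COL1A2 difference in low pigs turned to 0.067. The cause of these shifts was not tested. With 1 pig left out, the estimate in Hampshire ranged from -0.61 to 0.14 for COL27A1 and -0.25 to 0.71 for COL4A6. In Pietrain it ranged from -0.032 to 1.30 for COL16A1, -0.030 to 0.36 for COL14A1, -0.66 to 0.068 for COL11A1 and -0.13 to 0.34 for COL1A2. Between breeds in low pigs it ranged from -0.41 to 0.28 for COL14A1, -0.31 to 0.26 for COL1A2 and -0.050 to 0.45 for COL3A1. None of these estimates was called.

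The log2 difference in COL6A1/COL6A2 between breeds was -0.52 with a pseudocount of 0.1 (adjusted p = 0.0559, exact permutation test) and -0.64 to -0.48 without 1 pig. The breed difference ranged from 0.83 to 1.08 for COL5A1/COL5A2 and from -0.46 to -0.24 for COL5A2/COL3A1, which passed without Hampshire low pig 1. With loin weight, COL5A1/COL5A2 ranged from -0.17 to 0.31 in Hampshire, and in Pietrain COL4A1/COL4A2 from -0.0029 to 0.058, COL6A1/COL6A2 from -0.093 to 0.28, COL6A3/COL6A1 from -0.35 to 0.088 and COL5A2/COL3A1 from -0.12 to 0.042. Without the 2 pigs farthest from the median, 4 or 5 pigs remained. Pearson's r was then 0.887 and 0.985 for COL4A1 and COL4A2 in Hampshire and Pietrain, 0.896 for COL5A1 and COL5A2 in Hampshire, 0.955 and 0.982 for COL6A1 and COL6A2, 0.962 and 0.695 for COL6A3 and COL6A1, 1.00 and 0.735 for COL3A1 and COL1A2, and 0.981 and 0.993 for COL5A2 and COL3A1, none of them past the threshold at that number of pigs.

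No paired analysis was possible because every pig was a separate animal of a single group, and equal numbers in both breeds name different pigs. The planned ratios with COL1A1 were not run, since COL1A1 was not analysed here. The 13 chains that failed the filter had too few counts at this depth for a test.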
